A study of Homo sapiens with 12 samples.

Results

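The genes described here are the expressed LINC genes of 3 human lung cancer cell lines, whose symbol is LINC followed by a number. The table of expression values held 1704 such genes, of which 1105 were above 0 in at least 1 library. Genes at 1 FPKM or more in at least 2 of the 12 libraries were kept, which left 130. The members were thus chosen by their measured FPKM. FPKM counts fragments scaled to transcript length and library size, so levels of different genes can be compared. The same level was passed by 14699 genes of every kind, of 57905. The threshold fell in a dense range of levels: the second-highest library stood at 0.95 FPKM for LINC01842 and 0.975 FPKM for LINC01572, just outside, and at 1.02 FPKM for LINC02257 and 1.03 FPKM for LINC00862, just inside.

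PC9, HCC827 and HCC4006 are established lines of non-small-cell lung cancer that carry a mutant EGFR, the receptor tyrosine kinase whose signal runs through the kinase MEK to cell growth. In each line, 2 libraries came from cells that the labels call dormant. These were kept for 2 weeks on the EGFR inhibitor osimertinib at 100 nM together with the MEK inhibitor trametinib at 30 nM. The other 2 came from control cells that had received the solvent DMSO for 24 hours. Dormant cells grew in larger dishes, so drug, duration and dish cannot be told apart. Plates were set up in duplicate, and nothing says that they came from separate cultures, so p-values measure only the spread between these samples, which may be technical. Each line is a single genetic background, and the labels record no sorting of cells before lysis. The question the design poses is how RNA levels of dormant cells differ from those of growing ones.

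LINC symbols are given to long intergenic non-coding RNA genes that lie between protein-coding genes and have no name from function. Their RNAs are mostly made by RNA polymerase II, capped and spliced, and those with a poly(A) tail are captured by mRNA kits such as the one used here. As a class they are known for low levels and for expression limited to few cell types. Some act as RNA, on neighbouring genes or through bound proteins, and some have since been found to encode small proteins. For most, no function is known.

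The label was checked against GENCODE v29, an annotation on a later build than the deposited values, by gene identifier. Of the 130, 129 were found, and 104 were listed there as lincRNA, 7 as antisense, 7 as processed transcript and 6 as a transcribed pseudogene. In that annotation 4 were protein-coding: LINC00116 as MTLN, LINC00998 as SMIM30, LINC00094 as BRD3OS and LINC00854 as CCDC200. By type, the label of a long intergenic non-coding RNA held for the 104, and 111 members overlapped no coding gene. The median exonic length was 2458 bases, and 6 members had a single exon block. A coding gene overlapped 8 members on the same strand, as MUC20 does LINC00969, and 10 on the opposite strand, as PKD1L1 does LINC00525. Whether reads were counted by strand is not given in the sources used here, so for all of these reads of the partner may be included. Among them 2 were called changed in the mean over lines, of which LINC00525 is one.

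Replicates differed strongly in 2 of the 6 groups, and the 2 libraries concerned stood apart from the rest. A value without both is given where it changes the call of a LINC gene's printed difference or moves it by over 1.5 times. In the second HCC4006 dormant library the housekeeping gene GAPDH stood at 6.72 FPKM, against at least 3755 FPKM in every other library, and mitochondrial tRNA made up 20.0% of summed FPKM, against 0.513% to 2.66%. It listed 34 of the 130 LINC genes at 0, against 13 to 19 in the others. In the second HCC827 DMSO library ACTB stood at 1842 FPKM, against 12726 FPKM in its replicate. Across the 130 LINC genes, which are not independent, replicates correlated on the log2 scale with r of 0.623 in HCC4006 dormant cells, 0.894 in HCC827 DMSO cells and 0.96 to 0.967 in the other 4 groups. All 5 epithelial markers were above 0 in all libraries, EPCAM at 69.2 to 429 FPKM and CDH1 at 5.22 to 179 FPKM. The keratins KRT8, KRT18 and KRT19 stood at 5.87, 13.0 and 9.9 FPKM in the second HCC4006 dormant library, where their medians over the 12 libraries were 891, 1613 and 2490 FPKM, and their part in the results of that library was not tested. The lung lineage factor NKX2-1 was listed at 0 in 4 libraries, with a median of 1.63 FPKM. Of the other lung epithelial markers, SFTPB was at 0 in 2, with a median of 0.16 FPKM. NAPSA was at 0 in 1, with a median of 7.67 FPKM and up to 72.1 FPKM. Markers of blood cells stayed under 1 FPKM: PTPRC was at 0.14 FPKM or less, CD3E at 0 throughout, and CD14 at 0.99 FPKM or less. Of the endothelial markers, CDH5 and KDR were at 0.145 and 0.07 FPKM or less. VWF had a median of 0.02 FPKM and reached 3.05 FPKM. Of the 4 fibroblast markers, COL3A1 and DCN stayed at or under 0.36 FPKM, COL1A1 ranged over 0.18 to 12.2 FPKM, and COL1A2 was at 368 and 250 FPKM in HCC4006 dormant libraries, against 0.77 and 1.04 FPKM in HCC4006 DMSO libraries. The part of this difference in the HCC4006 results was not tested. In bulk samples, fewer cells of a type and less RNA per cell cannot be told apart.

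Expressed LINC genes were scarce RNAs. Their mean over 12 libraries had a median of 0.971 FPKM and a range from the 10th to the 90th percentile of 0.418 to 5.70 FPKM. Over all tested genes the median was 3.65 FPKM, with 0.719 to 46.9 FPKM between the same percentiles. A mean of 10 FPKM or more was reached by 5 LINC genes, and 68 lay under 1 FPKM. All LINC genes together made up 0.0197% to 0.0614% of a library's summed FPKM. Their summed level was 268 and 223 FPKM in PC9 dormant libraries, against 203 and 173 FPKM in PC9 DMSO libraries. For HCC827 the sums were 402 and 369 FPKM in dormant libraries, against 263 and 367 FPKM in DMSO libraries. For HCC4006 they were 387 and 532 FPKM in dormant libraries, against 226 and 326 FPKM in DMSO libraries. Both dormant sums lay above both DMSO sums in each line, by a narrow margin in HCC827.

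**Figure D1:**
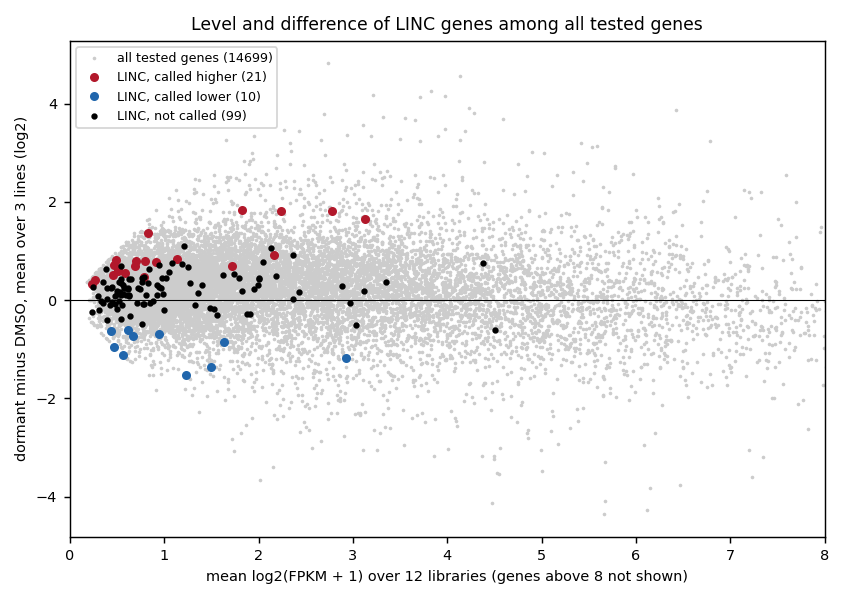
Mean log2(FPKM + 1) over 12 libraries (x, genes above 8 not shown) against the dormant minus DMSO difference in log2(FPKM + 1), averaged over 3 lines (y), for the 14699 tested genes (grey) and LINC genes called higher (red, 21), called lower (blue, 10) or not called (black). LINC genes sit at the low end of the range of levels, and their differences lie on both sides of 0.

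Differences between dormant and DMSO cells were taken on the scale of log2(FPKM + 1), which understates the change of genes near or under 1 FPKM, most of those described here. Each gene is given by its FPKM per library, then by the difference with its standard error from limma, a linear model fitted over all 14699 genes, and its p adjusted by Benjamini-Hochberg over them. A gene was called when that p was under 0.05. In the mean over lines 31 of 130 LINC genes were called, or 23.8%, where 15.4% of all tested genes were called. Higher in dormant cells were 21 of them, 16.2% against 10.9% of all genes, and lower were 10, 7.69% against 4.55%. The choice of members by level enters these shares: 32 members passed the level through dormant libraries alone and 10 through DMSO libraries alone, and 16 of the 31 called are among these members. They are therefore a description and say nothing about LINC genes as a class. The median difference was 0.25 for LINC genes and 0.22 for all tested genes, and 91 of the 130 differences were above 0. With median-of-ratios scaling the median of all genes moved to 0.03, and the LINC calls were 14 higher and 13 lower. Of all tested genes 2449 were then called, 1193 of them higher, where the main fit called 2268, 1599 of them higher. With quantile normalization the LINC calls were 15 higher and 13 lower, and of 2581 calls among all tested genes 1265 were higher. None of the 31 changed sign in any setting tried, all 31 were called without the 2 libraries that stood apart, and 10 were called in each of the 12 fits that left out 1 library. The count moved mostly as that of all genes did. It was 62 without those 2 libraries, 47.7% of members, where 42.9% of all tested genes were called. It was 11 without the second PC9 DMSO library, 8.46% against 7.27%, and 71 without the first HCC4006 dormant library, 54.6% against 50.3%.

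**Figure D2:**
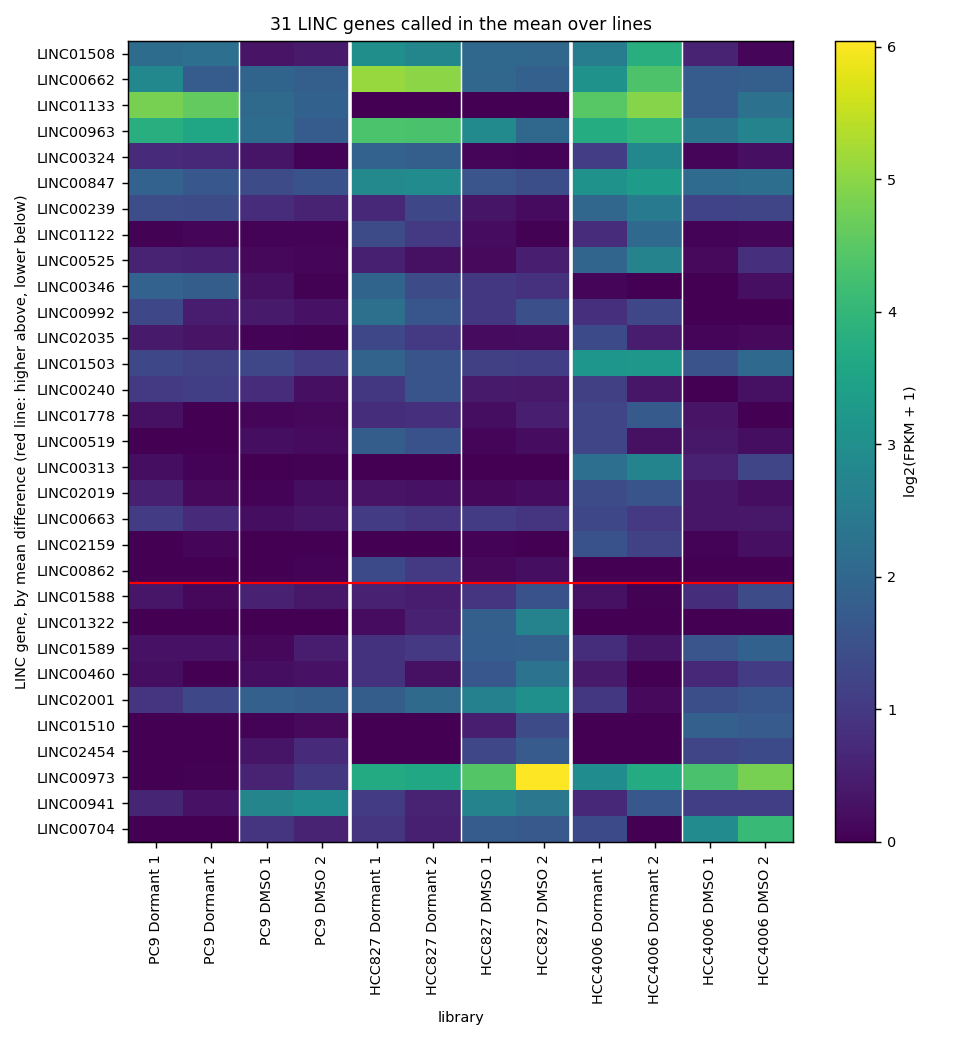
log2(FPKM + 1) of the 31 LINC genes called in the mean over lines (rows, ordered by mean difference, a red line parting higher from lower) in the 12 libraries (columns, dormant left of DMSO in each line). The 21 genes above the line are mostly brighter in dormant columns and the 10 below it in DMSO columns, and several, such as LINC01133, are dark in all 4 libraries of 1 line.

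The LINC genes with the largest increases were LINC01508, LINC00662, LINC01133 and LINC00963. LINC01133, on chromosome 1, is an RNA described in colorectal cancer cells to bind the splicing factor SRSF6. It stood at 26.9 and 23.3 FPKM in PC9 dormant libraries, against 3.23 and 2.66 FPKM in PC9 DMSO libraries. In HCC4006 it stood at 21.3 and 30.0 FPKM in dormant libraries, against 2.41 and 3.83 FPKM in DMSO libraries. In HCC827 it was listed at 0 in all 4 libraries. Dormant and DMSO libraries of PC9 and HCC4006 were thus far apart, and the gene was not detected in HCC827 in either state. The difference was 2.73 ± 0.37 (SE, adjusted p = 0.00424) in PC9 and 2.70 ± 0.37 (adjusted p = 0.00383) in HCC4006. It rose by 1.81 ± 0.22 (adjusted p = 0.000867) in the mean over lines. The zeros of HCC827 add no spread to the estimate shared by all groups, so these SE and p may be too small.

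LINC00963, on chromosome 9 and first described in prostate cancer cells, rose in the mean over lines by 1.66 ± 0.25 (SE, adjusted p = 0.00242). It had 12.9 and 11.01 FPKM in PC9 dormant libraries, against 3.38 and 2.41 FPKM in PC9 DMSO libraries. In HCC827 it had 19.0 and 18.9 FPKM in dormant libraries, against 6.27 and 3.10 FPKM in DMSO libraries. In HCC4006 it had 12.4 and 14.9 FPKM in dormant libraries, against 3.98 and 5.51 FPKM in DMSO libraries. All 6 dormant libraries exceeded all 6 DMSO libraries. Of the single lines only HCC827 was called for it, at 1.87 ± 0.43 (adjusted p = 0.0379).

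LINC01508, also on chromosome 9, rose by 1.83 ± 0.25 (SE, adjusted p = 0.00179) in the mean over lines. Its level was 3.37 and 3.64 FPKM in PC9 dormant libraries, against 0.24 and 0.35 FPKM in PC9 DMSO libraries. It was 7.03 and 5.82 FPKM in HCC827 dormant libraries, against 3.06 and 3.01 FPKM in HCC827 DMSO libraries. In HCC4006 it was 4.78 and 12.8 FPKM in dormant libraries, against 0.5 and 0.085 FPKM in DMSO libraries. Dormant libraries lay above DMSO libraries in every line, while HCC827 DMSO cells already held about as much as PC9 dormant cells. The HCC4006 difference alone was 2.81 ± 0.44 (adjusted p = 0.00684).

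LINC00662, on chromosome 19, had the largest called increase of the 130 in HCC827. It stood at 33.6 and 30.8 FPKM in HCC827 dormant libraries, against 2.99 and 2.63 FPKM in HCC827 DMSO libraries, a difference of 3.12 ± 0.51 (SE, adjusted p = 0.00908). In HCC4006 it stood at 7.5 and 19.4 FPKM in dormant libraries, against 2.40 and 2.56 FPKM in DMSO libraries. In PC9 it stood at 6.04 and 2.36 FPKM in dormant libraries, against 2.88 and 2.55 FPKM in DMSO libraries, and the groups overlapped. The mean over lines rose by 1.81 ± 0.30 (adjusted p = 0.00375).

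LINC00324 and LINC00346 were low in DMSO cells. Both became members through dormant libraries alone, so their low DMSO levels and their rises follow in part from the choice. LINC00324, on chromosome 17, had 0.675 and 0.595 FPKM in PC9 dormant libraries, against 0.275 and 0.05 FPKM in PC9 DMSO libraries. It had 2.75 and 2.54 FPKM in HCC827 dormant libraries, against 0.07 and 0.035 FPKM in HCC827 DMSO libraries. In HCC4006 it had 1.13 and 6.12 FPKM in dormant libraries, against 0.08 and 0.18 FPKM in DMSO libraries. It rose by 1.36 ± 0.26 (SE, adjusted p = 0.00809) in the mean over lines, with dormant above DMSO libraries in each. The HCC4006 difference of 1.79 ± 0.45 (adjusted p = 0.0485) was 0.92 (adjusted p = 0.0156) without the 2 libraries that stood apart. LINC00346, on chromosome 13 and now named PRECSIT, is an RNA whose gene is a described target of p53. Its level was 2.75 and 2.42 FPKM in PC9 dormant libraries, against 0.215 and 0.03 FPKM in PC9 DMSO libraries, a difference of 1.68 ± 0.26 (adjusted p = 0.00898). In HCC827 it was 2.88 and 1.64 FPKM in dormant libraries, against 0.985 and 0.815 FPKM in DMSO libraries. HCC4006 cells had 0.19 FPKM or less of it in all 4 libraries. LINC00346 rose in the mean over lines by 0.79 ± 0.15 (adjusted p = 0.00799).

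A further 15 genes rose in the mean over lines, by 0.33 to 0.91. None of these was called in all 12 fits that left out 1 library: LINC00847, LINC00239, LINC01122 and LINC00525 lost the call in 5, 3, 8 and 5 of them. LINC00847, on chromosome 5, had 2.76 and 2.12 FPKM in PC9 dormant libraries, against 1.64 and 1.88 FPKM in PC9 DMSO libraries. It had 6.21 and 6.56 FPKM in HCC827 dormant libraries, against 2.04 and 1.74 FPKM in HCC827 DMSO libraries. In HCC4006 it had 7.45 and 9.13 FPKM in dormant libraries, against 3.33 and 3.53 FPKM in DMSO libraries. Its groups did not overlap in any line, and the mean difference was 0.91 ± 0.20 (SE, adjusted p = 0.0145). LINC00525, which PKD1L1 overlaps on the opposite strand, had 2.90 and 5.47 FPKM in HCC4006 dormant libraries, against 0.11 and 0.745 FPKM in HCC4006 DMSO libraries, and stayed at 0.52 FPKM or less in the other 2 lines. Its HCC4006 difference was 1.85 ± 0.31 (adjusted p = 0.0101). LINC00525 became a member through the HCC4006 dormant libraries alone, so this difference follows in part from the choice and supports nothing.

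The 10 genes that fell in dormant cells were led by LINC00704 and LINC00941. LINC00704, on chromosome 10 and now named MANCR, is an RNA described as tied to mitosis in breast cancer cells. It was listed at 0 in both PC9 dormant libraries, against 0.89 and 0.525 FPKM in PC9 DMSO libraries. In HCC827 it stood at 0.905 and 0.45 FPKM in dormant libraries, against 2.38 and 2.25 FPKM in DMSO libraries. In HCC4006 it stood at 1.56 and 0 FPKM in dormant libraries, against 6.61 and 15.8 FPKM in DMSO libraries. All lines had dormant below DMSO libraries, and the mean difference was -1.52 ± 0.28 (SE, adjusted p = 0.00679). The HCC4006 difference was -2.82 ± 0.49 (adjusted p = 0.0114). Among dormant libraries only the first of HCC4006 reached 1 FPKM, so LINC00704 could not become a member without DMSO libraries. Its fall thus follows in part from the choice.

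LINC00941, on chromosome 12, is an RNA described to affect differentiation of human epidermal cells. It had 0.55 and 0.225 FPKM in PC9 dormant libraries, against 5.74 and 6.69 FPKM in PC9 DMSO libraries, a difference of -2.38 ± 0.39 (SE, adjusted p = 0.0106). In HCC827 it had 1.06 and 0.485 FPKM in dormant libraries, against 5.505 and 4.29 FPKM in DMSO libraries, a difference of -1.74 ± 0.39 (adjusted p = 0.0352). In HCC4006 it had 0.625 and 2.11 FPKM in dormant libraries, against 1.18 and 1.19 FPKM in DMSO libraries, and the groups overlapped. The mean over lines fell by 1.36 on the log2 scale, with SE 0.22 (adjusted p = 0.00391).

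LINC02454 and LINC01510 were the members listed at 0 in all 6 dormant libraries. They could become members through DMSO libraries alone, so the direction of their differences was fixed by the choice. Groups at 0 add no spread to the shared estimate, so their SE and p may be too small. LINC02454, on chromosome 12, had 0.27 and 0.645 FPKM in PC9 DMSO libraries, 1.43 and 2.33 FPKM in HCC827 DMSO libraries, and 1.41 and 1.57 FPKM in HCC4006 DMSO libraries. Its mean difference was -1.12 ± 0.13 (SE, adjusted p = 0.00079), with HCC827 at -1.51 ± 0.23 (adjusted p = 0.00673) and HCC4006 at -1.32 ± 0.23 (adjusted p = 0.0111). LINC01510, on chromosome 7 beside the receptor gene MET and now named COMETT, had 0.04 and 0.11 FPKM in PC9 DMSO libraries, 0.42 and 1.59 FPKM in HCC827 DMSO libraries, and 2.63 and 2.35 FPKM in HCC4006 DMSO libraries. Its mean difference was -0.95 ± 0.15 (adjusted p = 0.00343), and the HCC4006 difference was -1.80 ± 0.26 (adjusted p = 0.00502). Both RNAs were low in DMSO cells too, so a level of 0 in dormant cells lies at most 2.63 FPKM below the DMSO level. No member was listed at 0 in all 6 DMSO libraries.

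The remaining 6 genes lower in dormant cells were less stable. LINC00973, on chromosome 3, was the most abundant of these, with 12.02 and 11.4 FPKM in HCC827 dormant libraries, against 20.4 and 65.1 FPKM in HCC827 DMSO libraries. In HCC4006 it had 6.73 and 12.1 FPKM in dormant libraries, against 18.8 and 26.9 FPKM in DMSO libraries. PC9 held 0 and 0.02 FPKM in dormant libraries, against 0.495 and 0.975 FPKM in DMSO libraries. Dormant libraries lay below DMSO libraries in every line, yet the mean difference of -1.18 ± 0.32 (SE, adjusted p = 0.0348) lost its call in 9 of 12 fits that left out 1 library, with an adjusted p of up to 0.116. LINC00460, on chromosome 13 and described as raised in several carcinomas, had 0.85 and 0.21 FPKM in HCC827 dormant libraries, against 2.12 and 3.96 FPKM in HCC827 DMSO libraries. It became a member through DMSO libraries alone, so its fall follows in part from the choice. Its mean difference was -0.73 ± 0.18 (adjusted p = 0.0256), with the call lost in 7 of those fits. LINC01322, also on chromosome 3, was detected in HCC827 alone, at 0.15 and 0.47 FPKM in dormant libraries, against 2.56 and 5.51 FPKM in DMSO libraries, a difference there of -1.89 ± 0.27 (adjusted p = 0.00577). It became a member through the HCC827 DMSO libraries alone, so that difference too follows in part from the choice. Lines without detection add no spread to the shared estimate, so its SE and p may be too small. LINC02001, LINC01589 and LINC01588 had mean differences of -0.86, -0.69 and -0.62 (adjusted p = 0.0284, 0.017 and 0.0317). Among dormant libraries LINC01589 reached 1 FPKM only in the second of HCC827, at 1.005 FPKM, so its fall too follows in part from the choice.

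**Figure D3:**
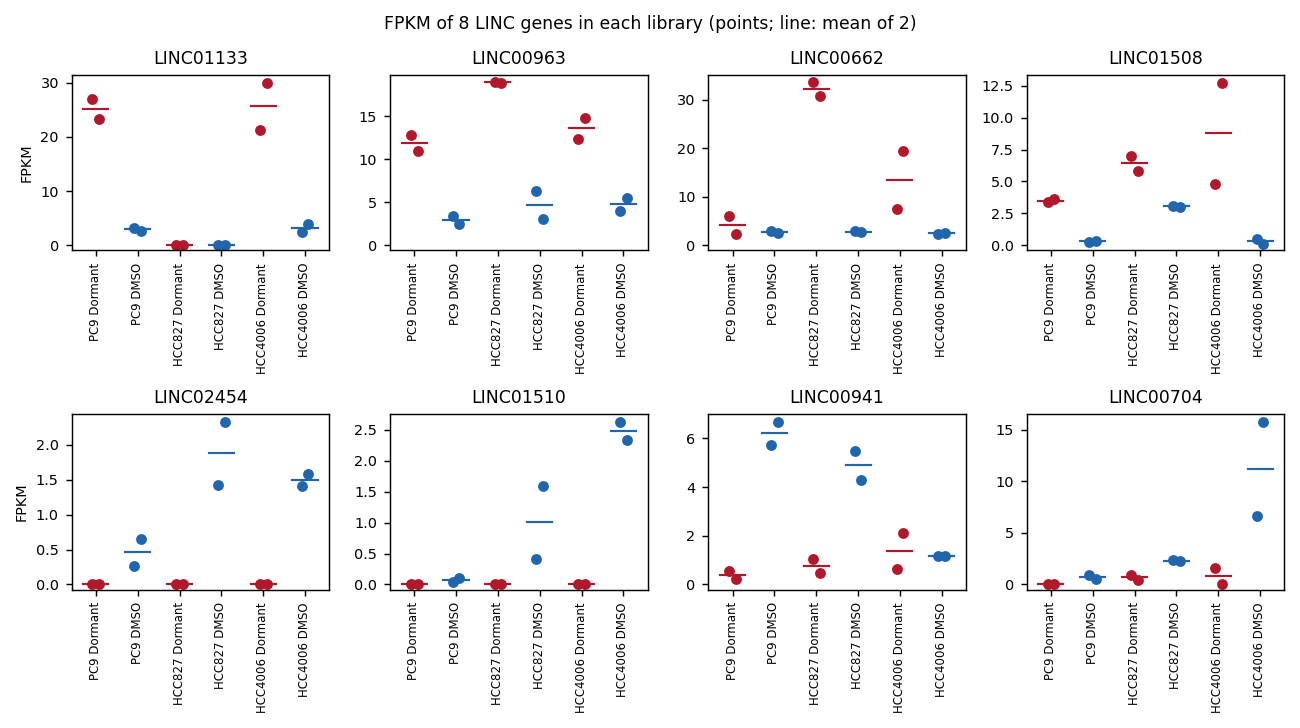
FPKM (y) of 8 LINC genes in each library (points) by line and treatment (x, dormant left of DMSO), with a line at the mean of the 2 libraries of each group. LINC00963 is higher in dormant cells of every line, LINC01133 lacks points above 0 in HCC827, and LINC02454 and LINC01510 are at 0 in all dormant groups.

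Start regions of 5 of the genes described, 2 that rose and 3 that fell, are shown to give the letters that were searched for motifs. No result rests on them. Sequences run from 250 bases before to 50 bases after the gene's start, 5′ to 3′ on the gene's strand, from RefSeq on GRCh38.p14, a later build than that of the deposited values. Capitals mark matches to TGANTCA, the site of AP-1, a factor downstream of MEK signalling, and to GGAATG, the site of the TEAD factors, partners of YAP, which the study's title names.
LINC01133, chr1:159960974-159961273, plus strand: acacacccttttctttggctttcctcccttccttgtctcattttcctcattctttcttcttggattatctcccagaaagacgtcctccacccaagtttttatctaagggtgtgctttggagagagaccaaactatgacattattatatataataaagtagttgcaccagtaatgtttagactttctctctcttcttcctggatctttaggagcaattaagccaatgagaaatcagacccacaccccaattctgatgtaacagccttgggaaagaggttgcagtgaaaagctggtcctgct
LINC00963, chr9:129488410-129488709, plus strand: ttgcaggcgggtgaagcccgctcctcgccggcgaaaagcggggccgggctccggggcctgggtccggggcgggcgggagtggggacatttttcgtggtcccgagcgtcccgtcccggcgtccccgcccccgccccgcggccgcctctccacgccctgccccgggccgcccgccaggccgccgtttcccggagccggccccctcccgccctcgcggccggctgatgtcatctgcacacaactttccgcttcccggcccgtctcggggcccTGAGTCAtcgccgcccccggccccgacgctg
LINC00704, chr10:4678021-4678320, minus strand: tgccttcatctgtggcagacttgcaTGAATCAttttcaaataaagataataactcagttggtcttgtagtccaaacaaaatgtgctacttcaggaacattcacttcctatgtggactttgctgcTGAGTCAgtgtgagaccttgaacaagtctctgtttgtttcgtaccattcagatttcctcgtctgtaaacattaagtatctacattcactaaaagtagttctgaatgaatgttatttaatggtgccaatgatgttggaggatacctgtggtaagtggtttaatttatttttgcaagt
LINC02454, chr12:65602619-65602918, plus strand: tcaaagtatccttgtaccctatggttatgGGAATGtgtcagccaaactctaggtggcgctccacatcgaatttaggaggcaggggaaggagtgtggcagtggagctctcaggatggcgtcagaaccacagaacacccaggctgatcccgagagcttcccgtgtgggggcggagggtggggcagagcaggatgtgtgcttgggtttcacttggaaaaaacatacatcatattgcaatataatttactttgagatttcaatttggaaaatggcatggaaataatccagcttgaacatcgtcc
LINC00460, chr13:106376314-106376613, plus strand: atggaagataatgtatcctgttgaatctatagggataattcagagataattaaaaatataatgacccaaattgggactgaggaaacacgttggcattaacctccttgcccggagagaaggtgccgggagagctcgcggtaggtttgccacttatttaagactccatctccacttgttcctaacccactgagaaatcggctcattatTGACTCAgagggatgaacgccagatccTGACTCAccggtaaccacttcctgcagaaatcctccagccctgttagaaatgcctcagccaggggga
LINC01133 held neither motif in this window. LINC00963 held an AP-1 match whose first base lies at position 19 after the start. In LINC00704 AP-1 matches lie at -225 and -126, and in LINC00460 at -44 and -17. LINC02454 held GGAATG at -221.

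A start region was found for 89 of the 130 members by symbol. Both strands were searched, and none of the 3 motifs contains another. TGANTCA was in 12 of the 89 windows, 13.5%, against 7.76% of all 27305 RefSeq windows of the same length. It was in 5 of 15 windows of genes that rose and 3 of 10 of genes that fell. GGAATG was in 12 of 89, 13.5%, against 14.0% of all windows, and in 3 of 15 that rose and 2 of 10 that fell. CACGTG, the E-box bound by MYC, was in 6 of 89, 6.74%, against 7.43% of all windows, and in 1 of 15 and 1 of 10. A match describes the letters and is no evidence of binding.

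Within single lines, 6 LINC genes were called in PC9, 11 in HCC827 and 15 in HCC4006. That is 4.62%, 8.46% and 11.5% of members, where 2.71%, 4.5% and 6.07% of all tested genes were called. In PC9 4 rose and 2 fell, where 1.82% and 0.891% of all tested genes did. In HCC827 7 rose and 4 fell, against 3.06% and 1.44% of all genes, and in HCC4006 10 rose and 5 fell, against 4.88% and 1.18%. Only 3 genes, LINC01133, LINC00941 and LINC02454, were called in more than 1 line, and none was called with opposite signs. In all 3 lines 0 were called higher and 0 lower, where 0.225% and 0.0816% of all tested genes were. Each of the 32 line calls was kept without the 2 libraries that stood apart, but none was kept in all 12 fits that left out 1 library, where the adjusted p reached 0.386. A missing call does not show an absent change. At an unadjusted p under 0.05 the counts were 17 in PC9, 35 in HCC827 and 42 in HCC4006, where 12.1%, 18.4% and 29.7% of all tested genes passed, and 51 in the mean over lines, where 32.3% passed.

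Some of these calls concerned RNAs at 1 FPKM or more in 1 line alone, others not. LINC01060, on chromosome 4, had 4.35 and 3.33 FPKM in PC9 dormant libraries, against 1.38 and 0.665 FPKM in PC9 DMSO libraries, and was listed at 0 in HCC827 and HCC4006. Its PC9 difference was 1.27 ± 0.23 (SE, adjusted p = 0.0168). The zeros of HCC827 and HCC4006 add no spread to the shared estimate, so this SE and p may be too small for PC9. Among DMSO libraries only the first of PC9 reached 1 FPKM, so LINC01060 could not become a member without dormant libraries. Its rise thus follows in part from the choice. LINC00707, on chromosome 10, stood lower in PC9, at 0.89 and 0.81 FPKM in dormant libraries, against 3.13 and 2.30 FPKM in DMSO libraries, with a difference of -0.996 ± 0.22 (adjusted p = 0.0438). The PC9 DMSO libraries alone made it a member. In HCC827 LINC01638, on chromosome 22, had 11.9 and 11.2 FPKM in dormant libraries, against 0.49 and 0.77 FPKM in DMSO libraries, a difference of 2.95 ± 0.65 (adjusted p = 0.0343). It had 5.17 and 0 FPKM in HCC4006 dormant libraries, against 0.975 and 0.915 FPKM in HCC4006 DMSO libraries, where its groups overlapped. LINC01638 became a member through dormant libraries alone, so its rise follows in part from the choice. LINC00519 had 2.45 and 1.90 FPKM in HCC827 dormant libraries, against 0.06 and 0.155 FPKM in HCC827 DMSO libraries, a difference of 1.51 ± 0.30 (adjusted p = 0.0204). Within HCC827 it reached 1 FPKM in dormant libraries alone, so this difference too may follow in part from the choice. In HCC4006 it had 1.42 and 0.205 FPKM in dormant libraries, against 0.3 and 0.16 FPKM in DMSO libraries, and without the 2 libraries that stood apart this difference was 0.98 and was called (adjusted p = 0.00825). LINC01638 was then called in HCC4006 as well, at 1.67 (adjusted p = 0.00252).

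Whether the difference varied between lines was tested with a moderated F test, which called 1 LINC gene, 0.769% of members, where 1.48% of all tested genes were called. This was LINC01133 (adjusted p = 0.0445), with differences of 2.73 in PC9, 2.70 in HCC4006 and none measurable in HCC827, where it was listed at 0. The call was lost with a pseudocount of 0.1 and in 10 of 12 fits that left out 1 library, where the adjusted p reached 0.259. Without the 2 libraries that stood apart, 20 members were called in this test, 15.4%, where 8.92% of all tested genes were. LINC01133 (adjusted p = 0.00688), LINC01638 (0.00168), LINC01510 (0.00334), LINC00519 (0.00511) and LINC00662 (0.0325) were among them, the last 4 named after their values were seen. With all libraries only LINC01133 was called. Its zeros in HCC827 fix the difference there at 0 and add no spread, so the call does not show a different response between lines.

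**Figure D4:**
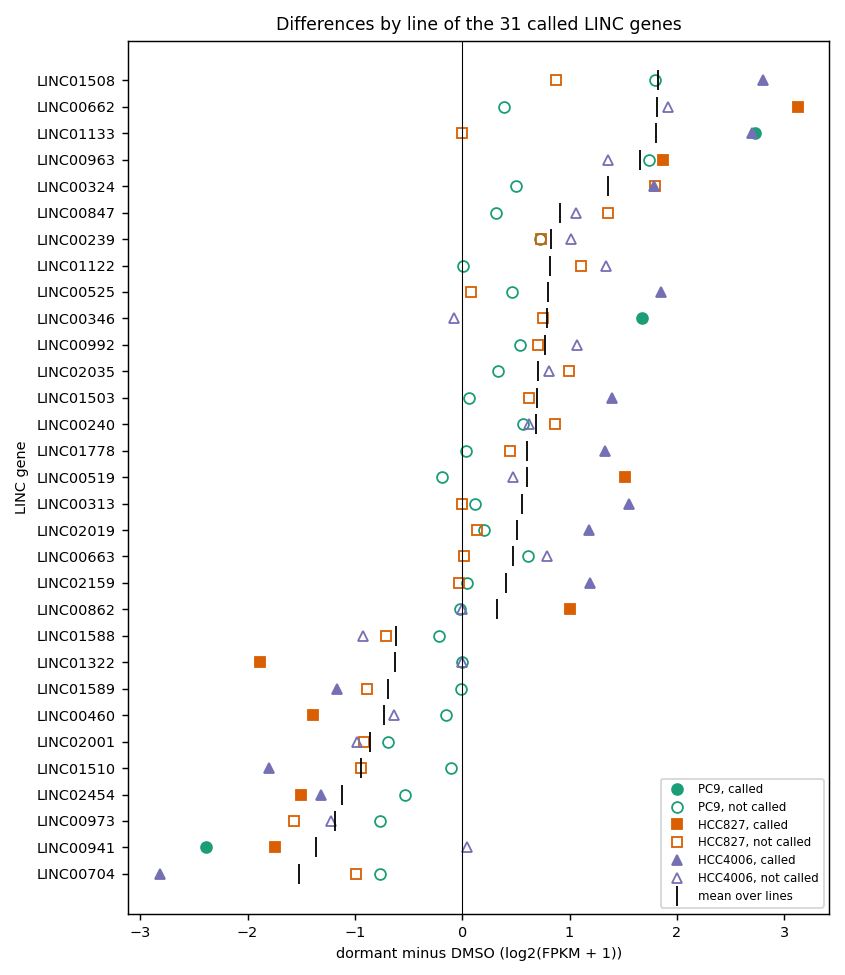
Dormant minus DMSO difference in log2(FPKM + 1) in each of the 3 lines for the 31 LINC genes called in the mean over lines (rows), filled where called in that line and open where not, with a black tick at the mean over lines. LINC01133 and LINC00662 show the widest gaps between lines, and no gene has called differences of opposite sign.

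Taking the raw order of libraries alone, 9 LINC genes had both dormant above both DMSO libraries in every line, 6.92% of members, where 9.12% of all tested genes did. They were LINC00963, LINC00847, LINC01508, LINC00680, LINC00239, LINC00324, LINC00992, LINC00240 and LINC02035, and LINC00680 was the one not called. Both dormant lay below both DMSO libraries in every line for 6, 4.62% against 4.43% of all tested genes: LINC00973, LINC00704, LINC02001, LINC02454, LINC01588 and LINC01510. These shares were close to or under those of all genes.

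Of 7 LINC genes listed for a described small protein, 3 were members and 4 were not found under their symbol. The 3 were abundant, and none was called in the mean over lines. LINC00116, which encodes mitoregulin, a small protein of mitochondria, averaged 23.9 FPKM over the 12 libraries. It had 14.8 and 17.4 FPKM in PC9 dormant libraries, against 17.3 and 11.01 FPKM in PC9 DMSO libraries. It had 20.5 and 19.7 FPKM in HCC827 dormant libraries, against 36.5 and 39.8 FPKM in HCC827 DMSO libraries, and 26.6 and 9.59 FPKM in HCC4006 dormant libraries, against 34.9 and 39.5 FPKM in HCC4006 DMSO libraries. HCC827 and HCC4006 had dormant below DMSO libraries and PC9 overlapped, with a mean difference of -0.62 ± 0.30 (SE, adjusted p = 0.184), or -0.37 (adjusted p = 0.104) without the 2 libraries that stood apart. LINC00998, which encodes the small membrane protein SMIM30, averaged 22.8 FPKM. It had 28.4 and 64.2 FPKM in HCC4006 dormant libraries, against 7.94 and 15.4 FPKM in HCC4006 DMSO libraries, with a mean difference of 0.76 ± 0.35 (adjusted p = 0.164). Without the 2 libraries that stood apart that difference was 0.82 (adjusted p = 0.00959), and it was then called. LINC00467, for which a mitochondrial peptide has been described in colon cancer cells, averaged 9.73 FPKM with a mean difference of -0.51 ± 0.34 (adjusted p = 0.32).

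A second list held 16 LINC genes with a described role as RNA, chosen with earlier results of these data known. Among them 9 were members, 4 lay below the level, the highest being LINC00261 at 2.12 FPKM in a single library, and 3 were not found under their symbol. In the mean over lines LINC01133 and LINC00346 rose, LINC00941 and LINC00460 fell, and LINC00511, LINC00665, LINC00707, LINC01116 and LINC00839 were not called. LINC00511, described as raised in several carcinomas, averaged 11.8 FPKM with a mean difference of 0.36 ± 0.27 (SE, adjusted p = 0.38). In HCC827 it had 26.8 and 23.4 FPKM in dormant libraries, against 11.01 and 6.685 FPKM in DMSO libraries. That difference was 1.44 ± 0.47 (adjusted p = 0.129) and was not called. Without the 2 libraries that stood apart it was smaller, 1.12, and was called, with a lone HCC827 DMSO library left. Its groups overlapped in PC9 and HCC4006. LINC00665 averaged 7.84 FPKM, at -0.06 ± 0.30 (adjusted p = 0.914). Without the 2 libraries that stood apart its mean difference was -0.39 (adjusted p = 0.0928), and its PC9 difference of -0.88 was called (adjusted p = 0.0371). LINC00707 was then called in the mean over lines too, at -0.38 (adjusted p = 0.0286).

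LINC01578, now named CHASERR, lies beside the chromatin remodeller gene CHD2, whose level it is known to restrain. It had 7.27 and 62.1 FPKM in HCC4006 dormant libraries, against 1.85 and 4.44 FPKM in HCC4006 DMSO libraries, and 0.89 to 4.43 FPKM in the other 8 libraries. The second HCC4006 dormant library thus held most of it, and the mean difference of 1.05 ± 0.47 was not called (SE, adjusted p = 0.149). Without the 2 libraries that stood apart the mean difference was smaller, 0.70, and was called (adjusted p = 0.0354). Among all 130 members, 24 were over 3 times higher and 43 over 3 times lower in that library than in its replicate. It held the highest value of 36 members, 27.7%, where it did so for 31.3% of all tested genes.

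In DMSO cells most expressed LINC genes reached 1 FPKM in 1 line or none. In DMSO cells 29 members had a group mean of 1 FPKM or more in all 3 lines, 22.3% of members, where 54.7% of all tested genes did. A single line reached that level for 43 members, 33.1% against 16.7%: 13 in PC9, 15 in HCC827 and 15 in HCC4006. For 44 of the 130 members no DMSO group reached it, and for 1984 of the 14699 tested genes. Of these, 39 members and 1771 genes reached it in a dormant group mean, so the choice by level enters both counts. The members' lower levels move with these counts, and their part was not tested. In an F test of DMSO levels between lines, 33 LINC genes were called, 25.4% of members, where 12% of all tested genes were called. They were highest in PC9 for 10, in HCC827 for 14 and in HCC4006 for 9. Without the 2 libraries that stood apart 64 members were called, 49.2%, where 48.4% of all tested genes were called, so the gap between both shares was not seen in that fit. Leaving out the first or the second HCC4006 dormant library gave 71 and 70 members, 54.6% and 53.8%, where 43.1% of all tested genes were called in either.

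The clearest example was LINC01980, on chromosome 3 near the gene of the transcription factor EOMES. It stood at 13.2 and 15.0 FPKM in HCC827 dormant libraries, against 10.9 and 15.5 FPKM in HCC827 DMSO libraries, and at 0.69 FPKM or less in the 8 libraries of PC9 and HCC4006 (DMSO F test, limma, adjusted p = 0.000126). Its level marked the line and did not differ detectably between treatments (mean difference 0.14 ± 0.20, adjusted p = 0.658, or 0.09, adjusted p = 0.572, without the 2 libraries that stood apart). LINC02474, on chromosome 1, had 49.1 and 31.4 FPKM in HCC827 dormant libraries, against 9.07 and 33.6 FPKM in HCC827 DMSO libraries, and 0.795 FPKM or less elsewhere (adjusted p = 0.0014). LINC01116, on chromosome 2, was at 4.15 and 3.75 FPKM in HCC4006 dormant libraries, against 4.28 and 5.96 FPKM in HCC4006 DMSO libraries, and at 0.78 FPKM or less in the other lines (adjusted p = 0.000819). LINC01468, on chromosome 10 and now named LNCAROD, was highest in HCC4006, at 5.62 and 6.76 FPKM in dormant libraries, against 6.95 and 12.6 FPKM in DMSO libraries. PC9 held 1.56 and 1.31 FPKM of it in dormant libraries, against 2.19 and 2.17 FPKM in DMSO libraries, and HCC827 0.13 FPKM or less (adjusted p = 0.000743). LINC00839, on chromosome 10, stood at 2.56 and 2.63 FPKM in HCC827 dormant libraries, against 2.81 and 1.44 FPKM in HCC827 DMSO libraries, and at 0.095 FPKM or less elsewhere. These RNAs kept to the same line in dormant and DMSO cells.

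**Figure D5:**
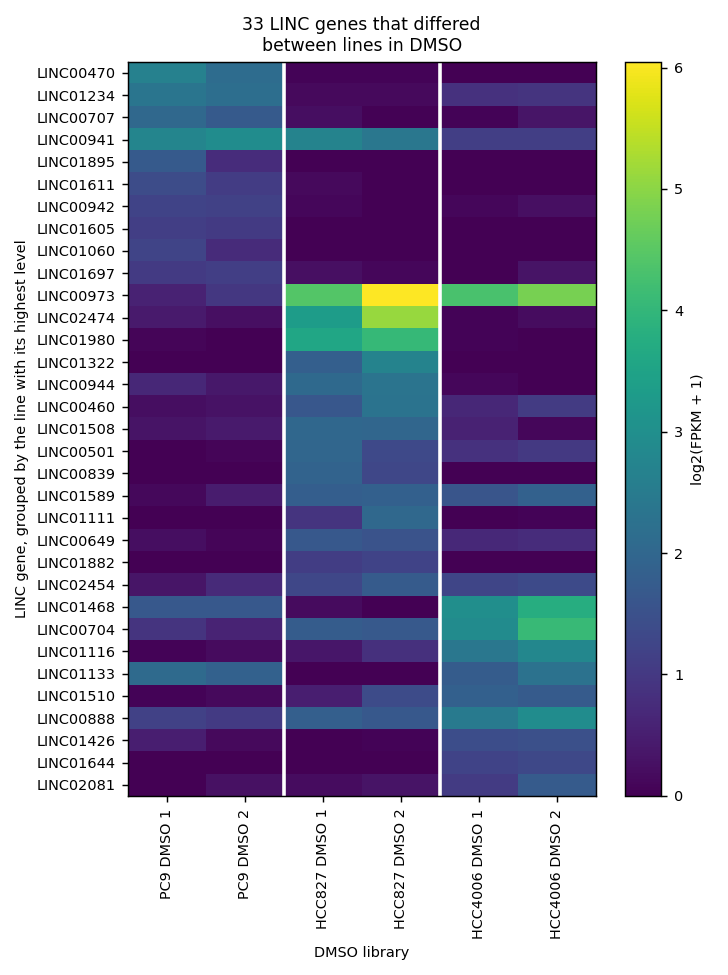
Heatmap of log2(FPKM + 1) of the 33 LINC genes called in the F test of DMSO levels (rows, grouped by the line with the highest level) in the 6 DMSO libraries (columns). LINC01980 and LINC02474 are high in HCC827 alone, and LINC01116 in HCC4006 alone.

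Since some LINC RNAs act on a gene beside them, each member was set beside its nearest protein-coding gene by start distance in GENCODE v29. A tested neighbour was found for 80 members. Across these pairs, which share libraries and are not independent, the mean differences of LINC gene and neighbour had a Pearson r of -0.00341. Of 25 called members with a tested neighbour, 3 rose beside a neighbour that rose, 1 rose beside one that fell, and the others had a neighbour that was not called, 12 beside a member that rose and 9 beside one that fell. The neighbour rose for 3 of 16 members that rose, 18.8%, and for 10 of 55 members that were not called, 18.2%, so these shares were close. The pairs that rose together were LINC00525 with TNS3, a focal adhesion protein (TNS3 1.98, adjusted p = 0.000967), LINC00313 with the kinase gene SIK1 (1.23, adjusted p = 0.02) and LINC02035 with DIRC2, a lysosomal transporter (1.30, adjusted p = 0.0379). The pair that moved apart was LINC00324 with AURKB, a mitotic kinase, which fell by 3.54 on the log2 scale (adjusted p = 0.000966). CAPRIN2, whose start lies head to head with that of LINC00941, had a difference of -0.01 (adjusted p = 0.975). MET, whose start lies 8561 bases from that of LINC01510, had -0.57 (adjusted p = 0.184). HMGA2, the nearest coding gene to LINC02454 yet 221300 bases away by start, had -1.23 (adjusted p = 0.0594). The differences of these neighbours are on the same log2(FPKM + 1) scale, in the mean over lines.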

How the data were processed

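RNA was sequenced in bulk from 12 libraries with a stranded mRNA kit, per the labels' protocols. The deposited values are FPKM, rounded to 0.01 by the authors, in 24 columns, 2 per library, whose content is not stated; both were averaged as 1 library. They differed by a median of 7.81% and at the 95th percentile by 38.7%, over 693 member values of 1 FPKM or more. Per the submitters' processing notes, the build was hg19 (GRCh37), and the tools, with no role given, include DESeq2 1.10.1, STAR 2.5.1b and Cufflinks 2.2.1. There are no counts, so depth is unknown and no counting interval is given. By the spacing of low U6 values, depth relative to the first PC9 DMSO library was 39.4% in the second HCC4006 dormant library and 67.6% to 106% in the others. The 39.4% rests on 11 values with a spacing of 1.27 FPKM, where other libraries had 15 to 33 values. Whether that spacing is a multiple of the true one was not tested.

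limma 3.58.1 in R 4.3.3 (lmFit, eBayes with trend) was fitted to log2(FPKM + 1) of 14699 genes with 1 coefficient per group, 6 residual and 3.8 prior degrees of freedom, and was tested on simulated data. Single-line tests share this spread, tests were two-sided, and Benjamini-Hochberg adjustment ran over all 14699 genes. Tables and figures were made with pandas 2.3.3, matplotlib 3.10.9 and numpy 2.4.6 in Python 3.11.15. GENCODE v29 and RefSeq gave gene types, neighbours and sequences.

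The members, lists and tests were chosen with earlier results of these data known. Named members are the 12 with the highest mean FPKM, up to 10 of the largest and 10 of the smallest called mean differences, up to 4 each way per line with groups that do not overlap, up to 6 called in each F test by widest range, 2 lists, and the neighbours of all these. Other called members are named where a count lists them, after their values were seen. Alternatives were other pseudocount, filter, scaling and column, a replicate block, and leaving out each library. Leaving out both libraries that stood apart was added after the data were seen.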

Additional observations from a re-analysis of the deposited data

Results flagged for a closer look

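The difference of LINC01133 between dormant and DMSO cells was called as varying between the 3 lines in the F test (limma, adjusted p = 0.0445). Dormant minus DMSO was 2.73 in PC9 and 2.70 in HCC4006 on the log2(FPKM + 1) scale. In HCC827 the gene was listed at 0 in all 4 libraries, so no difference could be measured there. The adjusted p was 0.142 with a pseudocount of 0.1, 0.0517 from the second column of each library alone and 0.192 with the replicate block. It was 0.00688 without the 2 libraries that stood apart from their replicate. It reached 0.259 when 1 library was left out, where 10 of 12 fits lost the call.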

How the results depend on the processing

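Direction held for the 31 LINC genes called in the mean over lines in every alternative run, and no result reversed. Counts of called members moved more, mostly with those of all tested genes, whose share called is given after each. In the mean over lines 31 (all genes 15.4%) became 14 with no filter (3.67%), 14 of 62 members with the stricter filter (14.0%) and 62 without both libraries that stood apart (42.9%). In PC9 6 (2.71%) became 3 with a pseudocount of 0.1 (1.67%), 2 with the stricter filter (2.13%) and 17 without those libraries (21.7%). In HCC827 11 (4.5%) became 7 with no filter (1.42%), 5 with the stricter filter (3.78%) and 24 without those libraries (17.7%). In HCC4006 15 (6.07%) became 6 (1.09%), 4 (4.3%) and 35 (18.6%) under the same 3. For the difference between lines 1 (1.48%) became 0 with a pseudocount of 0.1 (0.408%), 2 and 0 from the first and second column of each library (1.25% and 1.2%), and 20 without those libraries (8.92%). For DMSO levels between lines 33 (12%) became 18 with no filter (3.33%), 13 with the stricter filter (10.4%) and 64 without those libraries (48.4%). The causes were not tested, except that fewer members are tested under the stricter filter.

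Same-numbered libraries of dormant and DMSO cells deviated together with correlations of 0.0906, 0.0372 and 0.168 in PC9, HCC827 and HCC4006, so the numbers are not taken to pair samples. With the replicate block the counts were 16 in the mean over lines (all genes 10.6%), 1 in PC9 (0.837%), 2 in HCC827 (1.1%), 8 in HCC4006 (3.31%), 0 between lines (0.0136%) and 17 for DMSO levels (6.03%). Leaving out 1 library gave 11 to 71 in the mean over lines, lowest without the second PC9 DMSO library and highest without the first HCC4006 dormant one. The ranges were 0 to 12 in PC9, 0 to 36 in HCC827, 1 to 67 in HCC4006, 0 to 75 between lines and 12 to 71 for DMSO levels. The shares of all tested genes called moved widely over these fits too. In each comparison those shares and the member counts were highest without a HCC4006 dormant library. The ranges are thus not particular to LINC genes. A fit without 1 library assumes that the lone library left in a group varies like the other groups. With most members near or under 1 FPKM and depth unknown, a missing call does not show an absent difference.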
